A study of Homo sapiens with 6 samples.

Results

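The genes described here encode interleukin receptor chains and related cytokine receptors, the kinases JAK2 and JAK3, the transcription factors STAT3, STAT4, STAT5A, STAT5B and STAT6, the feedback inhibitors of the SOCS family and 4 interleukins. They were chosen by gene symbol from a fixed list, with each gene read from its brightest probe set, a group of probes against one transcript. The list was made with earlier results of these data known. All 47 listed genes were measured, among 18417 genes in all. All 6 arrays were made with RNA from RL, an established cell line of human B-cell lymphoma with the t(14;18) translocation. The treated group held 3 arrays of cells given LY317615 (enzastaurin, an inhibitor aimed at the beta form of protein kinase C) for 48 h, at a dose that the labels write as 2.5 mM and that could not be checked here. The control group held 3 arrays of untreated cells, also titled 48 h, with no vehicle named. RL is a single line, so the results hold for that line alone.

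Most of these receptors have no enzyme activity of their own. A cytokine brings receptor chains together, JAK kinases bound to their tails phosphorylate them, and STAT factors dock, are phosphorylated in turn and enter the nucleus as dimers. SOCS proteins and CISH are made in response and shut the signal off. Chains are shared: the common gamma chain IL2RG serves the receptors for several interleukins, IL6ST (gp130) those of the interleukin-6 family, and CSF2RB those for interleukin-3, interleukin-5 and GM-CSF. In germinal-centre B cells, interleukin-4 and interleukin-21 from helper T cells are the best known signals of this kind, acting mainly through STAT6 and STAT3. The receptors of the interleukin-1 family and IL17RA use other adaptors and not JAK kinases.

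Median intensity over all probe sets was 56.7 to 58.2 on the untreated arrays and 60.0 to 61.4 on the treated arrays. Treated replicate 3 stood apart, since limma gave it an array weight of 0.376, and the rest of the arrays weights of 1.04 to 1.51. Without it, 7 members were higher and 12 lower, against 8 and 12 with it. All 5 measured B-cell markers were bright, at log2 intensities of 9.13 to 11.52, and 4 of them fell. Falls were called in 21.4% of all genes and in 37.8% of those above the median intensity. Of 6 T-cell and NK-cell markers, 2 rose (33.3%), and of 5 myeloid markers, 2 rose (40.0%). Of all genes 14.2% rose, and of those below the median intensity 15.4%. Groups overlapped for CSF1R, a myeloid marker that rose. The T-cell and NK-cell markers and the myeloid markers were dim, at 3.79 to 6.57 and 3.01 to 5.80. The summed intensity of the B-cell markers ran from 9579 to 10070 untreated and from 6651 to 7325 treated. For the T-cell and NK-cell markers, summed intensity ran from 226 to 238 untreated and 249 to 295 treated. For the myeloid markers it ran from 116 to 128 untreated and 146 to 170 treated. All arrays held RNA from the RL line, so these dim values are not read as amounts of other cells. The part of these shifts in the results below was not tested. In RNA from whole cultures, fewer RL cells with a transcript and less of it per cell cannot be told apart. Whether replicates were separate cultures is not in the labels, and the p-values cover the spread among these 6 arrays only, which may be technical.

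After treatment, RL cells had less RNA for IL4R, IL2RG, IL13RA1 and IL21R, chains of the receptors for interleukin-4, interleukin-13 and interleukin-21, for both measured chains of the interleukin-5 receptor and for IL6R, the ligand-binding chain for interleukin-6. They had more RNA for both chains of the interleukin-10 receptor and for IL2RA, the alpha chain of the interleukin-2 receptor. STAT3, STAT5A and STAT5B fell while STAT6 rose. Neither JAK2 nor JAK3 passed the test, nor did 6 of the 7 SOCS-family inhibitors. In all, 12 members fell and 8 rose at an adjusted p under 0.05 (limma, Benjamini-Hochberg adjustment over all genes). That is 25.5% lower, against 21.4% of all genes, and 17.0% higher, against 14.2% of all genes. Either way, 42.6% of the members passed, against 35.7% of all genes. Since the members were chosen with earlier results of these data known, these shares describe them and are not a test. The median log2 fold change was 0.03 over the members and 0.02 over all genes; with array medians set equal these were -0.05 and -0.06, and after cyclic loess -0.04 and 0.01. Changes of at least 0.5 on the log2 scale that passed were seen in 8 members (17.0%), against 11.8% of all genes. All 8 were receptor chains, which with IL1RN made up 29 of the 47 members.

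**Figure D1:**
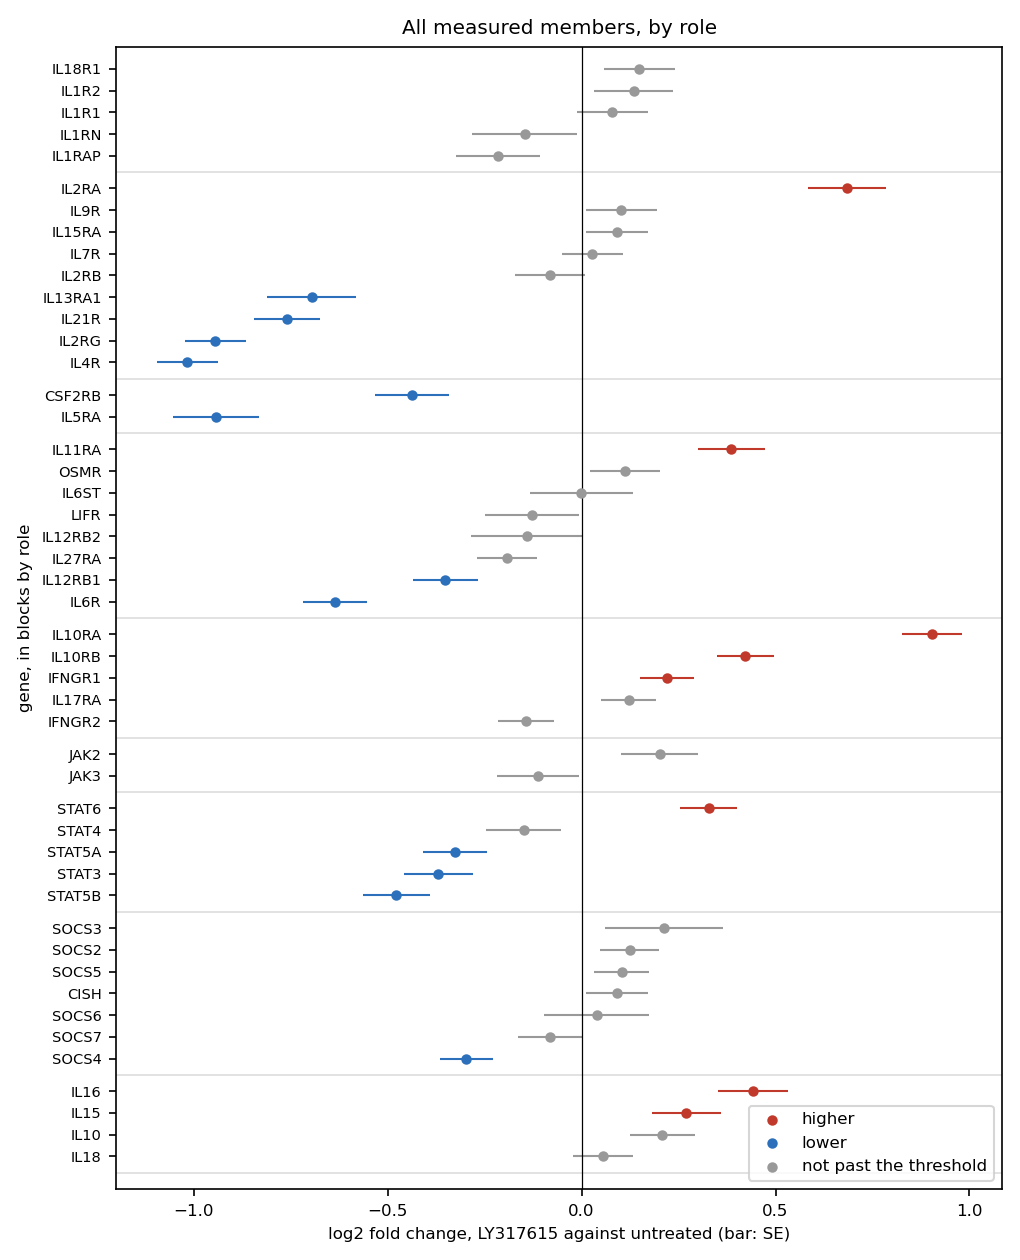
Log2 fold change of all 47 members, LY317615 against untreated, with the standard error as a bar. Blocks from top to bottom hold interleukin-1 family, interleukin-2 and interleukin-4 type, beta common, gp130 and interleukin-12 type, and interleukin-10, interferon gamma and interleukin-17 receptors, then JAK kinases, STAT factors, SOCS-family inhibitors and ligands. The 12 blue points passed the test below 0 and the 8 red points above it; values run from -1.02 for IL4R to 0.90 for IL10RA.

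More of the brighter members passed. Of the 19 members in the brighter part of all genes, split at the median intensity, 14 passed (73.7%), against 50.9% of all genes there. Among the 28 dimmer members 6 passed (21.4%), against 20.4% of the dimmer genes. The choice of members with earlier results known limits these comparisons too. Falls made up 10 of the 14 calls among the brighter members; of all brighter genes, 37.8% fell and 13.1% rose. No detection calls were used, so which of the dim members were above background is not known.

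**Figure D2:**
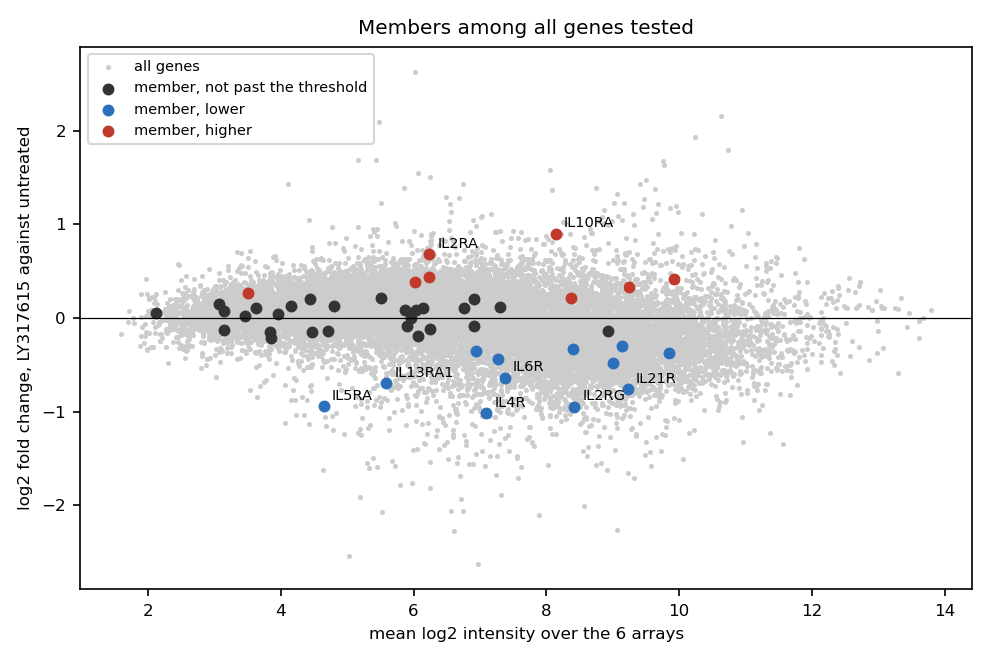
Mean log2 intensity over the 6 arrays against log2 fold change for all 18417 genes (grey) and the 47 members (larger points). Members that passed are blue where lower and red where higher, and those with a change beyond 0.6 are named. IL4R, IL2RG, IL5RA and IL21R lie lowest among the members and IL10RA highest, and most black points, the members that did not pass, lie in the dimmer part.

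Receptor chains for interleukin-4, interleukin-13 and interleukin-21 fell together. IL4R, which binds interleukin-4 and is part of both receptor types for it, read 7.68, 7.57 and 7.55 in log2 intensity on the untreated arrays and 6.64, 6.49 and 6.61 on the treated arrays. Every treated array lay below every untreated one. Its log2 fold change was -1.02 ± 0.08 (SE, limma, adjusted p = 5.99e-05), a 2.02-fold lower level. IL2RG, the common gamma chain that pairs with IL4R in the type I receptor, read 8.88, 8.99 and 8.79 untreated and 7.96, 7.97 and 7.91 treated. The treated arrays of IL2RG agreed closely, with an SD of 0.03 against 0.10 for the untreated arrays, and the groups lay far apart. Its change was -0.94 ± 0.08 (SE, limma, adjusted p = 8.1e-05). IL13RA1, which pairs with IL4R in the type II receptor and binds interleukin-13, read 5.68, 5.99 and 6.11 untreated and 5.27, 5.30 and 5.13 treated. Its untreated replicate 1 was the lowest of its group, yet above all treated arrays, and its change was -0.70 ± 0.11 (SE, limma, adjusted p = 0.00196).

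IL21R, the private chain for interleukin-21, which signals with IL2RG, read 9.60, 9.63 and 9.59 untreated and 8.99, 8.79 and 8.75 treated. All treated arrays were lower, with replicate 1 the least so. The change was -0.76 ± 0.08 (SE, limma, adjusted p = 0.000281). IL4R and IL21R lie next to each other on chromosome 16, with 0 protein-coding genes between them in the RefSeq order of GRCh38.p14.

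The chains of the interleukin-2 receptor went different ways. IL2RA, the alpha chain CD25 that raises affinity for interleukin-2, read 5.96, 5.69 and 6.02 untreated and 6.48, 6.65 and 6.58 treated. It was higher on every treated array, by 0.68 ± 0.10 (SE, limma, adjusted p = 0.00113), a 1.61-fold difference. IL2RB, the beta chain shared with the interleukin-15 receptor, did not pass (-0.08 ± 0.09, SE), and its groups overlapped. IL15RA, which presents interleukin-15 and is the next protein-coding gene to IL2RA on chromosome 10, changed by 0.09 ± 0.08 (SE, limma, adjusted p = 0.397). IL7R, for interleukin-7, was dim at 3.38 to 3.56 on all arrays and changed by 0.03, and IL9R, for interleukin-9, changed by 0.10; neither passed. IL9R lies on both sex chromosomes and has 2 probe sets with the same values, of which 1 was used.

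Both measured chains of the interleukin-5 receptor fell. IL5RA, the chain that binds interleukin-5, was dim, reading 5.02, 5.35 and 4.98 untreated and 4.08, 4.16 and 4.29 treated. The groups were far apart relative to their spread, and the change was -0.94 ± 0.11 (SE, limma, adjusted p = 0.000362). CSF2RB, the signalling chain it shares with the receptors for interleukin-3 and GM-CSF, read 7.51, 7.36 and 7.62 untreated and 7.19, 7.01 and 6.98 treated. Its groups did not overlap, and its change was smaller, at -0.44 ± 0.09 (SE, limma, adjusted p = 0.00738).

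**Figure D3:**
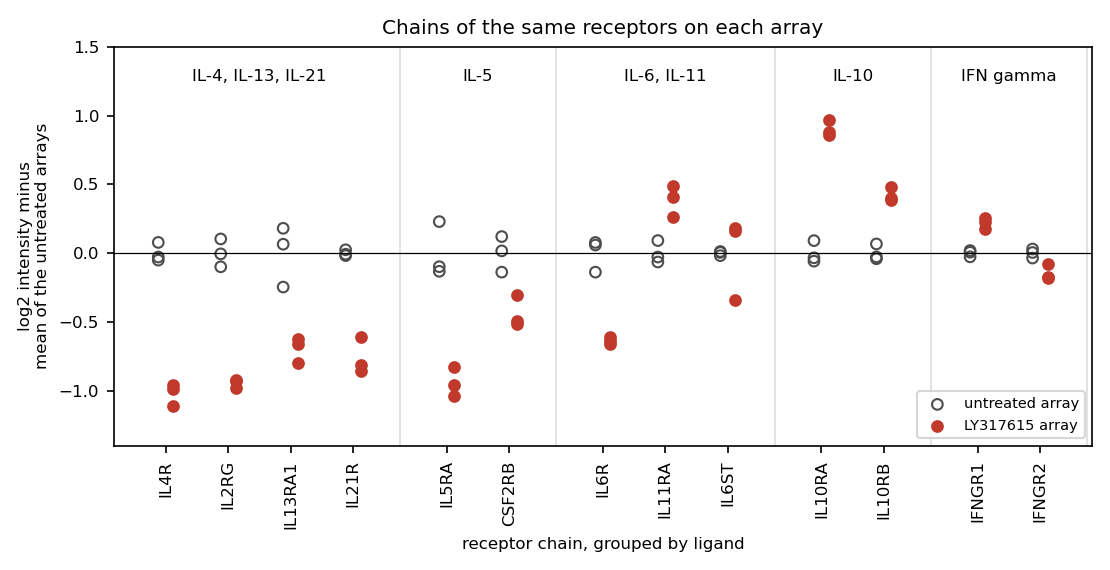
Log2 intensity minus the mean of the untreated arrays for 13 receptor chains, grouped by ligand, with each array as a point. All treated points of IL4R, IL2RG, IL13RA1, IL21R, IL5RA, CSF2RB and IL6R lie below the untreated points. So do those of IFNGR2, which did not pass. The treated points of IL10RA, IL10RB, IL11RA and IFNGR1 lie above. For IL6ST, treated replicate 3 lies below and the other treated arrays above.

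In the gp130 family, IL6R fell and IL11RA rose, while the shared chain IL6ST and the chains IL27RA, LIFR and OSMR did not pass. IL6R, which binds interleukin-6, read 7.55, 7.75 and 7.77 untreated and 7.08, 7.03 and 7.05 treated, with all treated arrays lower. Its change was -0.64 ± 0.08 (SE, limma, adjusted p = 0.000584). IL11RA, the corresponding chain for interleukin-11, went up: it read 5.81, 5.93 and 5.77 untreated and 6.32, 6.24 and 6.10 treated. This rise of 0.39 ± 0.09 (SE, limma, adjusted p = 0.0085) was 0.27 (adjusted p = 0.0617) after cyclic loess, a scaling that removes trends with intensity. IL6ST, the gp130 chain that both need, read 5.97, 5.98 and 5.95 untreated and 6.12, 6.14 and 5.62 treated. Its treated replicate 3 was the lowest of the 6 arrays while the other treated arrays were the highest. The change of -0.001 ± 0.133 (SE) therefore depended on that array, and without it the value was 0.17 (limma, adjusted p = 0.0941).

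IL12RB1, the chain common to the receptors for interleukin-12 and interleukin-23, read 7.05, 7.21 and 7.07 untreated and 6.85, 6.67 and 6.76 treated. It was lower on all treated arrays, by -0.35 ± 0.08 (SE, limma, adjusted p = 0.0114), though without untreated replicate 2 the adjusted p was 0.0502. IL12RB2, its partner for interleukin-12, was dim and changed by -0.14 ± 0.15 (SE), with overlapping groups. IL27RA, for interleukin-27, did not pass at -0.19 ± 0.08 (SE, limma, adjusted p = 0.0839), although its groups did not overlap. Its change passed after cyclic loess (-0.30, adjusted p = 0.0203), with array medians made equal (-0.27, adjusted p = 0.0347) and without the dimmest 30% of genes (adjusted p = 0.0484). LIFR and OSMR, for leukaemia inhibitory factor and oncostatin M, read between 2.85 and 3.74 on every array and did not pass.

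Both chains of the interleukin-10 receptor rose. IL10RA, the chain that binds interleukin-10, read 7.78, 7.65 and 7.63 untreated and 8.57, 8.55 and 8.65 treated. It had the largest rise of the members, 0.90 ± 0.08 (SE, limma, adjusted p = 9.25e-05), or 1.87-fold. IL10RB, its signalling partner that also serves interleukin-22 and the lambda interferons, read 9.67, 9.78 and 9.68 untreated and 10.09, 10.19 and 10.11 treated. All treated arrays were higher, by 0.42 ± 0.07 (SE, limma, adjusted p = 0.00272), and the rise was 0.64 after cyclic loess.

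Of the interferon gamma receptor chains, only IFNGR1 passed. IFNGR1, the ligand-binding chain, read 8.23, 8.28 and 8.27 untreated and 8.49, 8.52 and 8.44 treated, a change of 0.22 ± 0.07 (SE, limma, adjusted p = 0.0374). That call was lost without any 1 of the untreated arrays or without treated replicate 1 or 2 (adjusted p of 0.0799 to 0.103), and with the array medians set equal (0.14, adjusted p = 0.202); after cyclic loess the change was 0.39. IFNGR2, the chain that carries JAK2, changed by -0.14 ± 0.07 (SE, limma, adjusted p = 0.151) and did not pass, although its groups did not overlap; after cyclic loess its value was 0.06, of the other sign. IL17RA, the interleukin-17 receptor chain, changed by 0.12 ± 0.07 (SE) and did not pass either. Groups failed to overlap in 26 of the 47 members (55.3%), against 49.8% of all genes, and 20 of those 26 passed.

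None of the 5 genes of the interleukin-1 family passed. These were the signalling receptor IL1R1, the decoy receptor IL1R2, the accessory chain IL1RAP, the receptor antagonist IL1RN and the interleukin-18 receptor chain IL18R1. Their log2 fold changes ran from -0.22 for IL1RAP to 0.15 for IL18R1, and the groups overlapped in all 5. They were dim, at percentiles 2.8 to 24.1 of untreated intensity among all genes, and of the dimmer genes 20.4% passed.

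**Figure D4:**
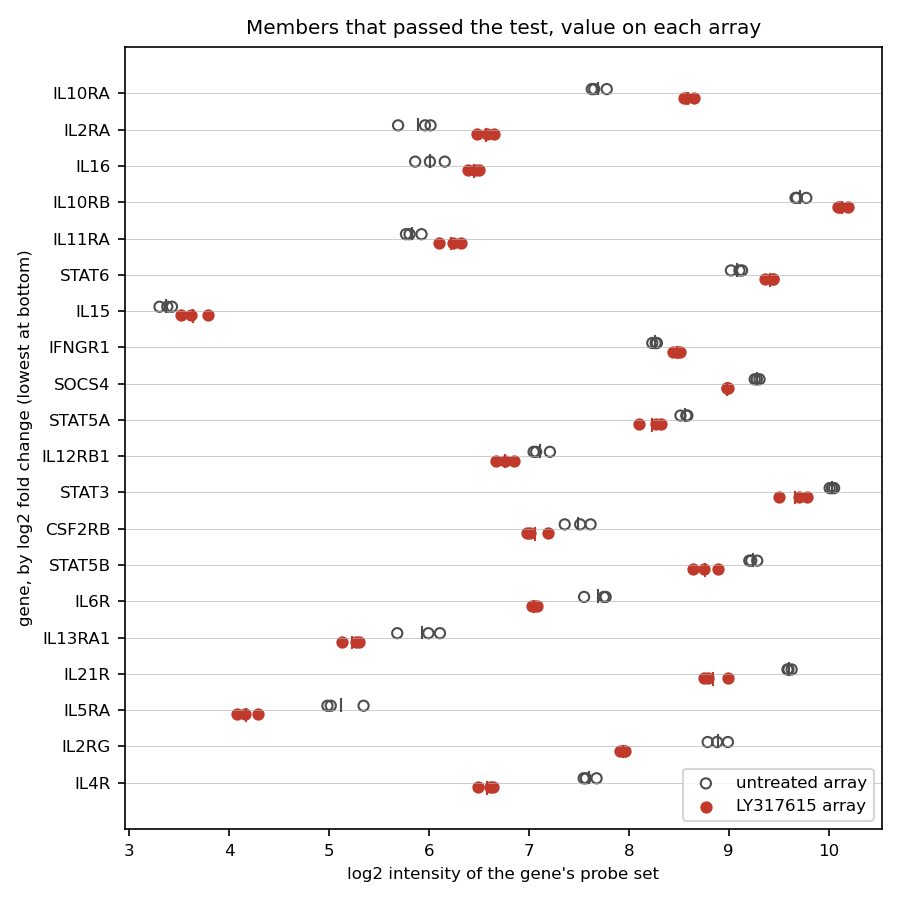
Log2 intensity on each of the 6 arrays for the 20 members that passed, ordered by fold change with the largest fall at the bottom; open circles are untreated, filled circles treated, and ticks the group means. Untreated and treated arrays do not overlap for any of the 20 genes, and the gap is widest for IL4R, IL2RG, IL5RA and IL10RA.

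The JAK kinases among the members did not pass. JAK2, which serves IFNGR2 and the beta common and interleukin-12 receptors, read 6.70, 6.95 and 6.79 untreated and 7.14, 7.04 and 6.87 treated. Its groups overlapped, and the change was 0.20 ± 0.10 (SE, limma, adjusted p = 0.141). JAK3, the kinase bound to IL2RG, changed by -0.11 ± 0.11 (SE, limma, adjusted p = 0.429), while IL2RG itself fell. A p-value above the threshold does not show that these kinases were equal in both groups.

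Of the 5 STAT factors, 3 fell (60.0%), STAT6 rose and STAT4 did not pass. Of all genes 21.4% fell, and of the brighter genes, which include the 3 that fell, 37.8%. With 5 genes, these shares say little about the family. STAT5B, which acts downstream of interleukin-2 family and growth hormone receptors, read 9.28, 9.23 and 9.21 untreated and 8.90, 8.75 and 8.64 treated, a change of -0.48 ± 0.09 (SE, limma, adjusted p = 0.00303). STAT5A, its close copy, read 8.59, 8.58 and 8.52 untreated and 8.32, 8.27 and 8.10 treated, a change of -0.33 ± 0.08 (SE, limma, adjusted p = 0.0146). These genes are similar in sequence, so some probes may read both. STAT3, the main factor of the interleukin-6, interleukin-10 and interleukin-21 receptors, read 10.05, 10.01 and 10.03 untreated and 9.70, 9.79 and 9.50 treated, a change of -0.37 ± 0.09 (SE, limma, adjusted p = 0.0117).

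Treated replicate 3 was the lowest array for each of these 3 genes. Without it their changes were -0.42 for STAT5B, -0.26 for STAT5A and -0.29 for STAT3, and all 3 still passed. After cyclic loess they were -0.27 (adjusted p = 0.0197), -0.15 (adjusted p = 0.106) and -0.15 (adjusted p = 0.168), so the falls of STAT5A and STAT3 no longer passed. The fall of STAT5A also had an adjusted p of 0.0503 without untreated replicate 2. STAT5B, STAT5A and STAT3 are consecutive protein-coding genes on chromosome 17.

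STAT6, the factor activated by interleukin-4 and interleukin-13, read 9.13, 9.02 and 9.11 untreated and 9.36, 9.44 and 9.44 treated. It was higher on every treated array, by 0.33 ± 0.07 (SE, limma, adjusted p = 0.00864), and by 0.54 after cyclic loess. It thus changed in the opposite direction to IL4R, IL2RG and IL13RA1, the chains through which it is activated. STAT4, used by the interleukin-12 receptor, was dim at 3.72 to 4.04 and changed by -0.15 ± 0.10 (SE, limma, adjusted p = 0.251).

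Among the 7 inhibitors, only SOCS4 passed (14.3%, against 35.7% of all genes). SOCS2, SOCS3, SOCS6 and CISH lay below the median untreated intensity, and of the dimmer genes 20.4% passed. SOCS4, whose best known partner is the EGF receptor, read 9.31, 9.26 and 9.28 untreated and 8.98, 8.99 and 8.98 treated. The replicates were tight and the fall small, at -0.30 ± 0.07 (SE, limma, adjusted p = 0.00965), and it was -0.09 (adjusted p = 0.354) after cyclic loess. SOCS3, the inhibitor of gp130 signals, read 5.32, 5.33 and 5.53 untreated and 5.68, 5.25 and 5.90 treated. Treated replicate 2 was the lowest of the 6 arrays and the other treated arrays the highest. The change was 0.21 ± 0.15 (SE, limma, adjusted p = 0.3), and 0.39 (adjusted p = 0.025) without that array. SOCS2, an inhibitor of growth hormone signals, SOCS5, SOCS6 and SOCS7 changed by 0.12, 0.10, 0.04 and -0.08 and did not pass.

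CISH, a textbook STAT5 target that feeds back on STAT5 signals, read 5.91, 5.76 and 5.82 untreated and 6.01, 5.89 and 5.87 treated. Its groups overlapped and it did not pass (0.09 ± 0.08, SE, limma, adjusted p = 0.396). STAT5A and STAT5B were lower in RNA, and STAT protein and its phosphorylation were not measured. Its promoter is shown because it had the most matches among the members to the letters that STAT dimers recognise. The search covered 250 bases before each RefSeq start of 39 members with an entry, 64 promoters in all, on both strands, and a stretch could count for more than one motif. The motif TTCNNNGAA was found 4 times in the CISH promoter, starting 241, 230, 129 and 112 bases before the start. Only 5 of 35093 promoters held it at least 4 times, and 6.57% held it at all. The STAT motif with 4 inner bases, TTCNNNNGAA, which STAT6 favours, was in 5.38% of promoters. Among members that passed, STAT5A, which fell, and IL16, which rose, each held it once, in 1 of their listed promoters, and these stretches are shown as the 2 cases. The sequences are RefSeq's for GRCh38.p14, 5′ to 3′ on the gene's strand, with motifs in capitals: CISH at chr3:50611775-50612024 (minus strand), STAT5A at chr17:42287189-42287238 (plus strand) and IL16 at chr15:81199256-81199305 (plus strand).
CISH: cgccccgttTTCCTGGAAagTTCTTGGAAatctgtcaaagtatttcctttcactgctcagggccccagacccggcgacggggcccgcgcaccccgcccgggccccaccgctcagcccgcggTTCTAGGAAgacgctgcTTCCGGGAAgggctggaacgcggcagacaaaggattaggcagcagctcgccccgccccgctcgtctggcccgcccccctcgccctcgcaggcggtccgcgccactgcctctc
STAT5A: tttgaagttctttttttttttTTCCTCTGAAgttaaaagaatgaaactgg
IL16: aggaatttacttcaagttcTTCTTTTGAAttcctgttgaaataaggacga

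Over the members, TTCNNNGAA was in promoters of 4 of 39 genes (CISH, IL15RA, IL1R1 and LIFR), against 8.09% of 27305 genes, and none of these 4 passed the test. TTCNNNNGAA was in 5 of 39 (STAT5A, IL16, IL18R1, IL1R2 and IL1RN), against 6.55% of genes. The interferon-response motif GAAANNGAAA was in 2 of 39 (IL18R1 and IL1RN), against 3.71%, and the MYC-type E-box CACGTG in 0 of 39, against 7.73%. None of these motifs was found in this window for IL4R, IL2RG, IL21R, IL13RA1, IL6R, IL5RA, IL10RA or IL2RA, the members with the largest changes. Only the 39 members with a promoter entry were searched, and a gene without one could give no match. A match is only a description of the letters.

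Of the 4 ligands, IL16 and IL15 rose. Rises were called in 14.2% of all genes and in 15.4% of the dimmer genes, which include both. With 4 genes, this count says little about ligands as a group. IL16, a chemoattractant that binds CD4, read 6.16, 5.86 and 6.01 untreated and 6.50, 6.40 and 6.46 treated, a change of 0.44 ± 0.09 (SE, limma, adjusted p = 0.00571), with all treated arrays higher. IL15, a growth factor for NK and memory T cells, was among the dimmest genes, at 3.30, 3.43 and 3.38 untreated and 3.62, 3.52 and 3.79 treated. Its change of 0.27 ± 0.09 (SE, limma, adjusted p = 0.0431) was lost without any 1 of the untreated arrays or without treated replicate 1 or 3 (adjusted p of 0.0732 to 0.125), after cyclic loess (0.0638), with equal array medians (0.133) and when the variance prior followed intensity (0.0851). IL10, the anti-inflammatory ligand of IL10RA, changed by 0.21 ± 0.08 (SE, limma, adjusted p = 0.0813) and did not pass, although its groups did not overlap. IL18 read 2.05 to 2.23 on all arrays and did not pass.

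Other genes of the pathway were taken from lists of related genes, of which 105 of 116 were measured; 9 rose (8.6%, against 14.2% of all genes) and 23 fell (21.9%, against 21.4%). The number that rose was 2 without untreated replicate 3, 5 without untreated replicate 1 and 3 with the array medians set equal. The median log2 fold change was 0.01, against 0.02 over all genes. Of 3 core genes, TYK2, the JAK kinase of interleukin-10 and interleukin-12 type receptors, rose by 0.37 ± 0.09 (SE, limma, adjusted p = 0.0137; 0.0534 without untreated replicate 3). JAK1 changed by -0.05 and SOCS1 by -0.20, and neither passed. Among 26 other receptor chains 0 rose and 3 fell, so 11.5% passed, against 35.7% of all genes and 20.4% of the dimmer genes. IL23R, which pairs with IL12RB1 to bind interleukin-23, read 7.24, 7.14 and 7.10 untreated and 6.61, 6.44 and 6.30 treated. With every treated array lower, it changed by -0.71 ± 0.09 (SE, limma, adjusted p = 0.00067). IFNAR1 (-0.26, adjusted p = 0.022), of the type I interferon receptor, and IL20RB (-0.28, adjusted p = 0.0318) were lost without any 1 of the untreated arrays. IL20RB was also lost without treated replicate 2 (adjusted p = 0.0889), and IFNAR1 was -0.04 after cyclic loess.

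Of 31 other ligands, 3 rose and 3 fell, 9.7% each way, against 14.2% higher and 21.4% lower of all genes. IL23A, the private subunit of interleukin-23, fell by 0.46 on the log2 scale (limma, adjusted p = 0.00219), so that IL23R, IL12RB1 and IL23A were all lower. IL12B, the subunit that interleukin-12 and interleukin-23 share, was dim and rose by 0.47 (adjusted p = 0.00223). IL17A rose by 0.47 (adjusted p = 0.0203; 0.0703 without untreated replicate 2). EBI3, a subunit of interleukin-27, changed by -0.30 (adjusted p = 0.0322), which was lost without untreated replicate 1 or 3 or treated replicate 2 (adjusted p of 0.0649 to 0.12).

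Of 23 measured regulators of the pathway, 10 fell (43.5%) and 1 rose (4.3%), with a median log2 fold change of -0.22. Of all genes, 21.4% fell and 14.2% rose. Most of these regulators were bright, and of the brighter genes 37.8% fell and 13.1% rose, so the share that fell was near that background. CBLB, a ubiquitin ligase that restrains receptor signals, changed by -0.76 ± 0.09 (SE, limma, adjusted p = 0.00032). ELOB, part of the ubiquitin ligase that SOCS proteins recruit, changed by -0.51 ± 0.07 (SE), PIAS1, an inhibitor of STAT factors, by -0.47 ± 0.08 and PTPN2, a phosphatase of JAK and STAT proteins, by -0.59 ± 0.10. Of 22 transcripts known to respond to STAT factors, 4 rose (18.2%, against 14.2% of all genes) and 7 fell (31.8%, against 21.4% of all genes and 37.8% of the brighter genes). FCER2, the CD23 gene that interleukin-4 induces in B cells through STAT6, changed by -1.55 ± 0.10 (SE, limma, adjusted p = 2.28e-05), with STAT6 itself higher. MYC changed by -1.32, BCL6 by -1.23 and the kinase gene PIM2 by -0.91; each has further inputs besides STAT factors.

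The split between falls and rises varied with the scaling. With the array medians set equal, 76.1% of all called genes were lower, against 60.1% as deposited and 53.5% after cyclic loess, and the members split into 13 lower and 6 higher. After cyclic loess the members split into 10 lower and 6 higher. None of the 20 members that passed changed sign under any alternative tried.

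**Figure D5:**
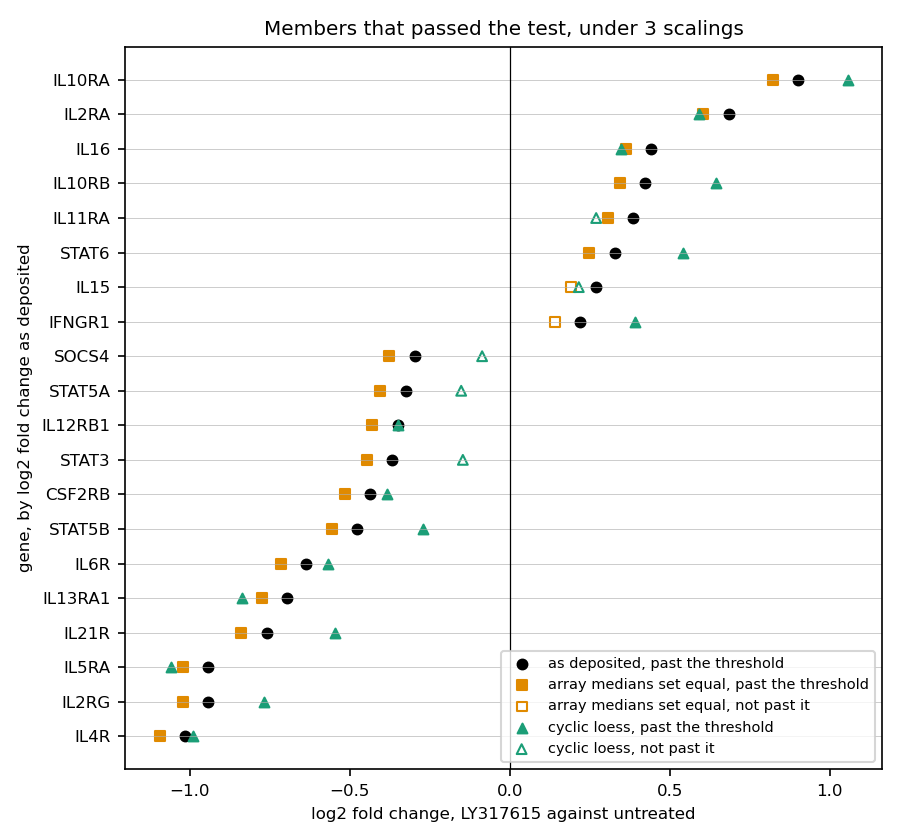
Log2 fold change of the 20 members that passed, under the deposited scaling (circles), with array medians set equal (squares) and after cyclic loess (triangles). Open symbols did not pass an adjusted p of 0.05: after cyclic loess SOCS4, STAT5A, STAT3, IL11RA and IL15, and with equal medians IL15 and IFNGR1. No symbol crosses 0.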

How the data were processed

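The deposited table holds probe-set intensity on a linear scale for 33297 probe sets on Affymetrix Gene 1.0 ST arrays. The submitters' processing notes name GCOS 1.4, Affymetrix Expression Console and RMA, in no stated order. Since RMA ends in log2 values, the authors' table implies an unstated step back to the linear scale. Here log2 was taken with no constant. Probe sets with 1 gene symbol numbered 19460; 1754 had several and 12083 none, and these were left out. The brightest probe set stood for each of 18417 genes. All genes were fitted together with limma 3.58.1 (R 4.3.3; lmFit, eBayes, two-sided), with Benjamini-Hochberg adjustment and a threshold of 0.05. The code was checked on simulated data. Tables and figures used Python 3.11.15. The alternatives tried were each array left out, a block for the replicate number, an intensity trend, array weights, equal medians, cyclic loess, a filter on dim genes and the mean of probe sets. The number of arrays limits the precision. All members were named; of other pathway genes, up to 4 per list that passed, by smallest adjusted p, beside JAK1 and SOCS1. The members and lists were chosen with earlier results of these data known.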

Additional observations from a re-analysis of the deposited data

How the results depend on the processing

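Of the 20 members that passed, 13 passed under all alternatives run for them. The other 7 (IL11RA, IL12RB1, IFNGR1, STAT3, STAT5A, SOCS4 and IL15) lost their call under at least 1, and 2 further members, IL27RA and SOCS3, gained one; the cause was not tested. Leaving out 1 array gave 10 to 12 members lower and 6 to 8 higher. Correlations between the deviations of same-numbered arrays were small (-0.017, 0.093 and 0.066). Untreated and treated replicate 2 were nonetheless each other's best match between the groups, and so were untreated and treated replicate 3. The arrays of replicate 1 were not. With 3 arrays per group these values cannot decide whether the arrays were paired. The labels do not say what the numbers share, so they were not taken as pairs. With the replicate block 12 members were lower and 6 higher, IFNGR1 and IL15 losing their calls. The number of other pathway genes called higher was 9, with 2 to 12 when 1 array was left out (2 without untreated replicate 3, 5 without untreated replicate 1) and 3 with the array medians set equal. Setting the medians equal moved the median of all genes by -0.079. The filter on the dimmest 30% left out 16 members, so they have no value there. No detection calls were used, which limits what can be said of dim members.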
